A study of Mus musculus with 9 samples.

Results

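The 10 genes described here restrain the cell cycle or answer to the tumour suppressor p53: the INK4 inhibitor genes Cdkn2a and Cdkn2b, the CIP/KIP inhibitor genes Cdkn1a, Cdkn1b and Cdkn1c, and the p53 targets Mdm2, Ccng1, Trp53inp1, Sesn2 and Phlda3. They were chosen by symbol, and all 10 were found among the 13336 genes of the deposited table. The study asks what forced Lef1, a transcription factor of the Wnt pathway, does to mouse airway myoepithelial cells expanded in culture. In all 9 libraries the mice carried ACTA2-CreERT2, a Cre recombinase that tamoxifen activates and that the promoter of smooth muscle actin drives, and they received tamoxifen on 5 days before harvest. The 5 Lef1KI libraries came from ACTA2-CreERT2:Lef-1KI+/+ mice and were sorted as GFP-negative. The 4 WT libraries came from ACTA2-CreERT2:ROSA-TG mice and were sorted as GFP-positive, so WT names the reporter line, and gate and genotype cannot be told apart. Each library pooled tracheal gland cells of 3 to 5 mice. The age of the mice is not stated in the sources used. All cells were grown to passage 1 with Y-27632 at 10 µM and with DMH-1, A83-01 and CHIR 99021 at 1 µM each, the last 3 being inhibitors in turn of BMP receptors, TGF-beta receptors and GSK3.

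Cyclin-dependent kinases drive cells from G1 into DNA synthesis, in part by phosphorylating the retinoblastoma protein. INK4 proteins bind Cdk4 and Cdk6 and keep them from D-type cyclins, while CIP/KIP proteins bind cyclin-kinase complexes, above all those of Cdk2. The Cdkn2a locus encodes both p16INK4a and, from another first exon and another reading frame, p19ARF, which binds Mdm2 and so lengthens the life of p53; it is known for its rise in cells that age in culture. p53 switches on Cdkn1a as well as genes of its own feedback, growth arrest, death and metabolism.

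Lef1 lay between 139 and 312 TPM (a gene's share of all transcripts, corrected for gene length and scaled to a fixed total) in Lef1KI libraries and between 0.38 and 0.55 TPM in WT libraries, as labelled. Krt5, a keratin of basal cells, had 8586 ± 829 TPM (SD, n = 5) in Lef1KI and 7008 ± 2442 TPM (SD, n = 4) in WT, and Acta2, the smooth muscle actin gene, 62.3 ± 31.2 and 128.9 ± 41.04 TPM (log2 difference −1.13, limma adjusted p 0.0834). The 11 measured basal and myoepithelial markers summed to between 20384 and 24463 TPM in Lef1KI and between 15641 and 22592 TPM in WT. Most of each sum came from the keratin genes Krt5, Krt14 and Krt17. Their means were 8586, 7217 and 5498 TPM in Lef1KI and 7008, 6258 and 4358 TPM in WT. Of the 11 markers, Mylk rose (log2 difference 0.70) and Ngfr fell (−1.07), but without WT A, WT B or WT E neither passed. Mylk was lost with median centring and without Lef1KI A, B, C or D too, Ngfr also without Lef1KI E, and Acta2 fell without Lef1KI C (−1.36). Fibroblast markers were higher in Lef1KI: 10 of 14 rose, against 6.73% of all genes. The smallest p were those of the collagen genes Col6a3 and Col1a1 (log2 differences 2.88 and 2.71). Of the 14 differences 13 were above 0, and Fbln2 was lower in Lef1KI (−0.405, limma adjusted p 0.337). The sum of the 14 lay between 359 and 1119 TPM in Lef1KI against 108 to 168 TPM in WT. Of 10 endothelial markers 6 rose, against 6.73% of all genes, with the smallest p for Ramp2 (2.10) and Plvap (1.33). The sums of the 10 were 37.0 to 112 against 19.9 to 29.9 TPM. Of the 10 differences 9 were above 0, and Esam was lower in Lef1KI (−0.743, limma adjusted p 0.321). Of 5 leukocyte markers Lyz2 (1.95) and Coro1a (0.45) rose, against 6.73% of all genes. Coro1a rose neither with median centring nor without WT B or WT E. The sums of the 5 were 58.6 to 244 against 111 to 260 TPM. Most of these sums came from Cd68, with means of 93.7 TPM in Lef1KI and 180 TPM in WT. Lyz2, Adgre1 and Coro1a were higher in Lef1KI without overlap, and Itgam was lower with overlap. Over all genes 11.9% did not overlap, in either direction. Adgre1 and Coro1a were near the floor. Adgre1 had 0.1 to 0.2 TPM in Lef1KI against 0 to 0.01 TPM in WT, and Coro1a 0.35 to 0.78 against 0 to 0.23 TPM. Without Lef1KI A, Adgre1 (0.23) rose as well and Cd68 (−1.59) fell. None of the measured markers was at 0 in every library, but the filter of the deposited table, a mean of at least 3 SD in a group, leaves out such genes. On the log2(TPM + 1) scale, Lyz2, Coro1a, Adgre1, Plvap, Kdr, Cdh5, Emcn, Thy1 and Postn met this filter only in Lef1KI, where they were higher. Ngfr met it only in WT, where it was higher. The places of these genes in the table thus depend on those groups, and so do the counts of markers that rose or fell. Ptprc, the pan-leukocyte gene, was not among the genes analysed here. In bulk RNA, fewer cells of a type and less RNA per cell cannot be told apart. Which cells the marker RNA came from, and their part in the results below, was not tested.

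Of the 10 genes, 1 changed between the groups, Cdkn2a, which rose. The words changed, rose and fell are kept for a limma adjusted p under 0.05 over the whole table. Among all genes 7.97% changed and 6.73% rose, so 1 of 10 is close to the background share. An unadjusted p under 0.05 was found for 3 of the 10 (Cdkn2a, Cdkn2b and Trp53inp1), against 23.8% of all genes. In 2 of the 10, Cdkn2a and Cdkn2b, the groups did not overlap, against 11.9% of all genes. Each difference subtracts the WT mean from the Lef1KI mean in log2(TPM + 1) units, in which the median over all genes was 0.14 and 69.6% of genes were above 0. Of the 10 genes, 8 were above 0. Centring each library on its median moved the all-gene median to −0.02, and of the genes called then, 605 of 937 were higher in Lef1KI, against 898 of 1063 as deposited. The all-gene count was 1686 without Lef1KI A, 643 without WT B and 628 without WT E, and 2 of the 10 genes were called without Lef1KI B or without Lef1KI E.

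**Figure D1:**
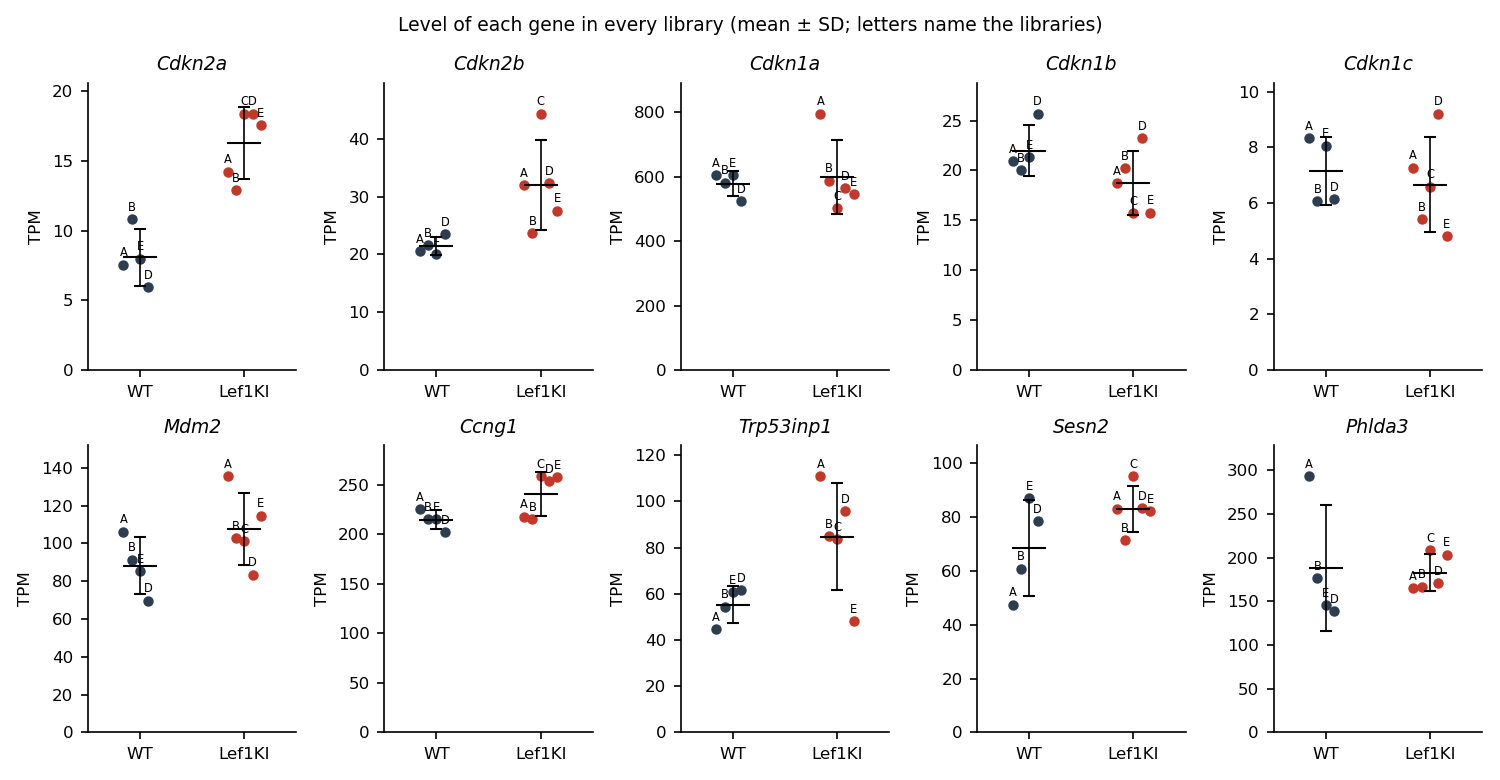
Level in TPM (y axis, from 0) of each of the 10 genes in the 4 WT and 5 Lef1KI libraries; points are libraries with their letters, and black marks give mean ± SD. Only in the panels of Cdkn2a and Cdkn2b do all Lef1KI points lie above all WT points, by a narrow margin for Cdkn2b (23.65 in Lef1KI B against 23.48 TPM in WT D).

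Cdkn2a (ENSMUSG00000044303, chromosome 4 from 89274471 to 89294653 on the minus strand, mm10) was about doubled in Lef1KI. Cdkn2a stood at 14.2, 12.9, 18.4, 18.4 and 17.6 TPM in Lef1KI libraries A through E, against 7.57, 10.8, 5.96 and 8.0 TPM in WT libraries A, B, D and E. The lowest Lef1KI library, B, was above the highest WT library, also B. The mean was 16.3 ± 2.56 TPM in Lef1KI (SD, n = 5), against 8.09 ± 2.02 TPM in WT (SD, n = 4), a 2.01-fold ratio of means. The log2 difference was 0.94 (SE 0.184, 95% confidence interval 0.54 to 1.35, limma adjusted p 0.0105). An exact two-sided permutation test, with 126 arrangements of the group labels, gave p 0.0159, the smallest the design allows. The call held without any 1 of the 9 libraries, with differences between 0.82 and 1.08, and the difference was 0.78 with each library centred on its median (limma adjusted p 0.0241). Its difference was larger than that of 95.4% of all genes, while its WT level stood above 39.8% of them.

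The values do not say which of the Cdkn2a products the RNA would encode. GENCODE M21 lists 2 transcripts with 3 exons each: a long one that starts with the first exon of p19ARF, and a short one that starts 12461 bases further along, with the first exon of p16INK4a. They share 575 exonic bases, 67.5% of the short and 64.2% of the long transcript, and the table gives a single value for the gene. RefSeq's promoter windows (GRCm38.p6, 250 bases before to 50 after a RefSeq start) cover both. The bases before the 2 starts are printed because they differ so much in CpG content, with CpG pairs in capitals. The first is chr4:89294654-89294869 and the second chr4:89282193-89282442, both minus strand and ending at the last base before the GENCODE first exon.
p19ARF start: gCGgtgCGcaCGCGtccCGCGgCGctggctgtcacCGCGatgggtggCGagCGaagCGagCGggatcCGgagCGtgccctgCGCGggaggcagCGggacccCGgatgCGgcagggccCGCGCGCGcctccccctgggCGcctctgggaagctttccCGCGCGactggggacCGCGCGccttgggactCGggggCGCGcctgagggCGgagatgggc
p16INK4a start: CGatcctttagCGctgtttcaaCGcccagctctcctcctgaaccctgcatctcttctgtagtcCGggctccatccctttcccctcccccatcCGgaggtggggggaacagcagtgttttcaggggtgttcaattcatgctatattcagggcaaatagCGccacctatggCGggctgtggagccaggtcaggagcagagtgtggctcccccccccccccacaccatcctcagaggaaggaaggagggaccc
The stretch before the p19ARF start holds 35 CpG pairs in 216 bases and the one before the p16INK4a start 7 in 250 bases. Over whole windows the counts were 45 and 12, and 1.93% and 39.6% of the 32851 RefSeq windows hold at least as many. The TCF/LEF letters searched on both strands, CTTTG followed by AT, TT, AA or TA, were in neither window, and 16.9% of all windows hold at least 1 of them.

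**Figure D2:**
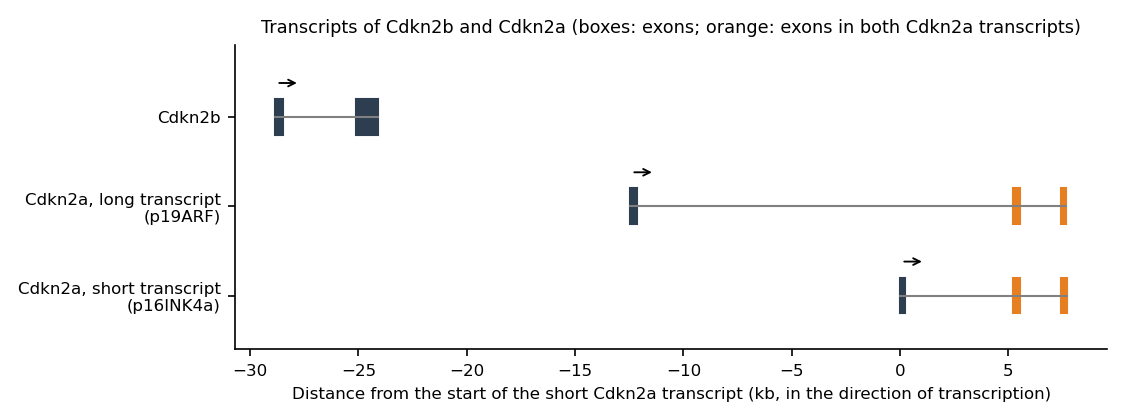
Exons (boxes) of the annotated Cdkn2b and Cdkn2a transcripts by distance in kb from the start of the short Cdkn2a transcript, with transcription running to the right. The 2 Cdkn2a transcripts differ in their first exon and share the second exon and most of the last (orange).

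Cdkn2b (ENSMUSG00000073802, chromosome 4 from 89306299 to 89311039 on the minus strand) encodes p15INK4b, a Cdk4 and Cdk6 inhibitor that TGF-beta is known to induce; the medium blocked TGF-beta receptors in both groups. The gene lies 11645 bases from Cdkn2a. Cdkn2b stood at 31.9, 23.7, 44.3, 32.3 and 27.6 TPM in Lef1KI libraries A through E, against 20.5, 21.6, 23.5 and 20.1 TPM in WT libraries A, B, D and E. All Lef1KI libraries were higher than all WT libraries, and Lef1KI C stood highest. The means were 31.96 ± 7.77 TPM (SD, n = 5) and 21.4 ± 1.503 TPM (SD, n = 4). The log2 difference of 0.53 (SE 0.167, 95% confidence interval 0.16 to 0.90) missed the threshold, with a limma adjusted p of 0.0849, although the exact permutation p for this gene alone was 0.0159. It passed without Lef1KI B (0.62, limma adjusted p 0.0486), the library nearest to WT.

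The ratio of Cdkn2a to Cdkn2b, in TPM, was 0.522 ± 0.0912 in Lef1KI (SD, n = 5) and 0.380 ± 0.101 in WT (SD, n = 4). It ran from 0.415 to 0.637 and from 0.254 to 0.500, so the groups overlapped, and a larger rise of Cdkn2a than of Cdkn2b did not pass an exact two-sided permutation test (difference in log2 ratio 0.48, p 0.0635). The paralogs share little exact sequence: no stretch of 50 bases is the same in a Cdkn2a and the Cdkn2b transcript, and the longest identical stretch has 23 bases. Within 300 kb on either side, 2 other genes were in the table. Mtap, the methylthioadenosine phosphorylase gene next to the locus, averaged 28.5 ± 7.05 TPM in Lef1KI, against 20.9 ± 2.52 TPM in WT, a log2 difference of 0.41 (limma adjusted p 0.2), and the long noncoding RNA gene Wincr1 had 16.2 ± 10.1 against 7.74 ± 3.25 TPM (0.865, limma adjusted p 0.226). Neither passed the threshold.

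Fibroblast markers were higher in the same 5 libraries, and their sum can be set beside the INK4 genes library by library. Lef1KI C had the largest sum (1119 TPM), the highest Cdkn2b and, with D (938 TPM), the highest Cdkn2a. Lef1KI E had the smallest sum of the group, 359 TPM. Its Cdkn2a level, 17.6 TPM, was above those of Lef1KI A, with a sum of 735 TPM, and B, with 548 TPM. For Cdkn2b the order followed the sum apart from B and E. Which cells this marker RNA came from, and what they add to the INK4 difference, was not tested.

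**Figure D3:**
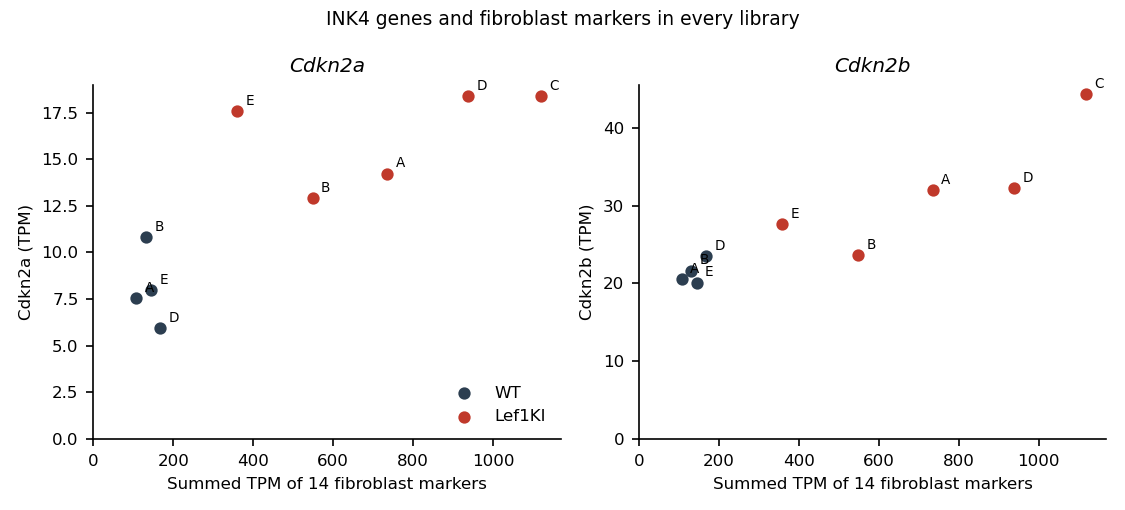
Cdkn2a (left) and Cdkn2b (right) in TPM against the summed TPM of 14 fibroblast markers in each library (WT dark, Lef1KI red, letters name libraries). Lef1KI E has the smallest fibroblast sum of its group (359 TPM) with 17.6 TPM of Cdkn2a, and Lef1KI C has the largest sum and the highest Cdkn2b.

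None of the 3 CIP/KIP genes changed, and their median log2 difference was −0.11. Cdkn1a (ENSMUSG00000023067, chromosome 17 from 29090976 to 29100727 on the plus strand), which encodes p21, the classic p53 target among the inhibitors, was the most abundant of the 10 genes in every library. Cdkn1a stood at 795, 588, 502, 564 and 546 TPM in Lef1KI libraries A through E, against 605, 581, 524 and 604 TPM in WT libraries A, B, D and E. Apart from Lef1KI A, which was highest, the libraries of both groups overlapped. The means were 599 ± 114 TPM (SD, n = 5) and 579 ± 38.04 TPM (SD, n = 4), with a log2 difference of 0.03 (95% confidence interval −0.26 to 0.33, limma adjusted p 0.896). The sign depended on scaling and on single libraries: the difference was −0.13 with median centring, −0.07 without Lef1KI A and −0.01 without WT D. The WT level was above that of 98.3% of all genes.

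Of the 10 promoter windows that RefSeq gives for 8 of the 10 genes, 3 hold a p53 half-site (its consensus letters read the same on both strands), against 8.36% of all windows. They belong to Cdkn1a, Mdm2 and Ccng1. Only the upstream of the 2 Cdkn1a windows holds a pair of half-sites no more than 13 bases apart, as 0.073% of all windows do. The bases before that start (GRCm38.p6, chr17:29090729-29090975, plus strand) are shown because they carry this pair, in capitals.
Cdkn1a upstream start: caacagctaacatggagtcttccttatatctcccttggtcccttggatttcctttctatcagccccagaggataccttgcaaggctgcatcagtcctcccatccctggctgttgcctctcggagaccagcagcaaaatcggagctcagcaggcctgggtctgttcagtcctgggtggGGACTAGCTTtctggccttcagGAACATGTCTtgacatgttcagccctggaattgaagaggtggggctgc
The half-sites begin 73 and 51 bases before the RefSeq start and are 12 bases apart. Only exact matches are in capitals. The bases right after the downstream half-site, tgacatgttc, miss the consensus only in their first letter and so were not counted. A match of letters is a description of the sequence, and nothing here measured p53 on it. TCF/LEF letters, here CTTTG followed by TT, were in 1 of the 10 windows, that of Mdm2.

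Cdkn1b (ENSMUSG00000003031, chromosome 6 from 134920401 to 134925513 on the plus strand) encodes p27, an inhibitor that cells keep high in quiescence and remove by Skp2-dependent degradation. Cdkn1b stood at 18.7, 20.2, 15.7, 23.3 and 15.8 TPM in Lef1KI libraries A through E, against 20.9, 20.04, 25.7 and 21.3 TPM in WT libraries A, B, D and E. The lowest 3 libraries were Lef1KI libraries, and the groups overlapped. Its log2 difference was −0.23 (SE 0.149, 95% confidence interval −0.56 to 0.10, limma adjusted p 0.366). It was −0.39 with median centring, which did not pass either (limma adjusted p 0.171).

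Cdkn1c (ENSMUSG00000037664, chromosome 7 from 143458339 to 143461050 on the minus strand) encodes p57, the imprinted inhibitor that is expressed from the maternal allele, and had the lowest mean of the 10 in both groups, although Cdkn2a was lower in WT A, D and E. Cdkn1c stood at 7.27, 5.43, 6.59, 9.21 and 4.82 TPM in Lef1KI libraries A through E, against 8.33, 6.08, 6.15 and 8.07 TPM in WT libraries A, B, D and E. The WT libraries lay inside the Lef1KI range. GENCODE places a gene model on the other strand within Cdkn1c, and another within Cdkn1a, and no source used here says whether the counting used strand. Between the groups the log2 difference was −0.11 (SE 0.194, 95% confidence interval −0.53 to 0.32, limma adjusted p 0.759). It ran from −0.01 without Lef1KI E to −0.22 without Lef1KI D, and was −0.27 with median centring. Of 14 measured imprinted genes 1 rose, against 6.73% of all genes. It was Igf2, the growth factor gene 791522 bases from Cdkn1c on chromosome 7. Igf2 had 6.52 ± 2.30 TPM in WT (SD, n = 4) and 20.1 ± 3.91 TPM in Lef1KI (SD, n = 5). Its log2 difference was 1.52 (limma adjusted p 0.00246). The list had a median of 0.13. Without Lef1KI B 3 of the list rose, the other two being Ndn (0.96) and Sgce (1.07), and 2 rose without Lef1KI A (Ndn, 0.895), Lef1KI E (Sgce, 1.05) or WT B (Ndn, 1.00); both were named after their values were seen. Fibroblast markers were higher in the same 5 libraries.

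None of the 5 p53 targets outside the inhibitors changed, although all 5 differences were above 0, as 69.6% of all genes were. Their median was 0.28 as deposited and 0.12 with median centring, beside 0.14 and −0.02 over all genes. With median centring Phlda3 turned to −0.14 and Ccng1 came to 0.001.

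**Figure D4:**
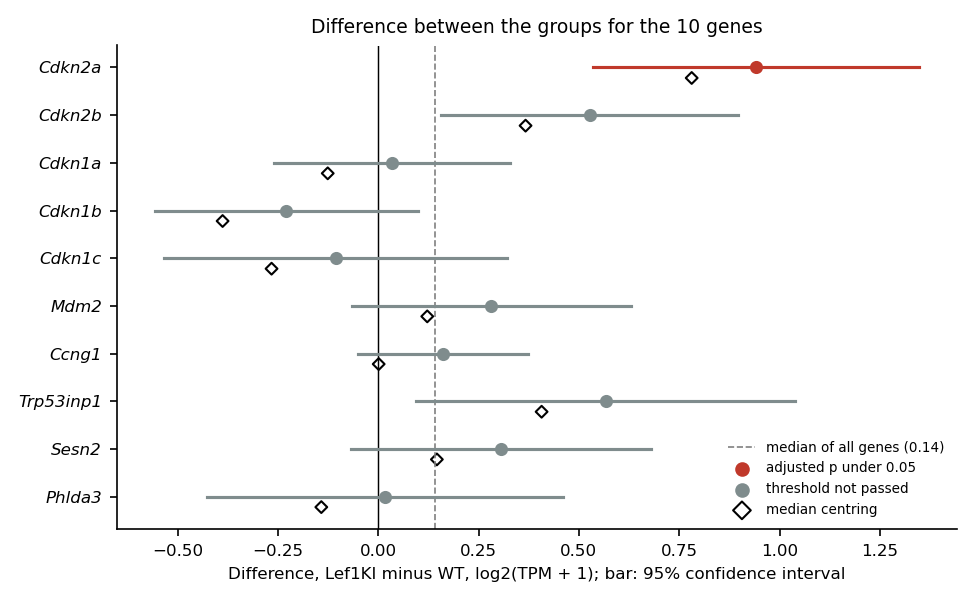
Difference between the groups on the log2(TPM + 1) scale (x axis) for each gene, with 95% confidence intervals from limma; red marks the gene past the threshold, open diamonds give the difference with median centring and the dashed line the median of all genes (0.14). Only the interval of Cdkn2a belongs to a gene past the threshold, and Cdkn1a and Phlda3 change sign with centring.

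Mdm2 and Ccng1 act on p53 itself: Mdm2 is the ubiquitin ligase that degrades it, and Ccng1 encodes cyclin G1, which recruits a phosphatase to Mdm2. Mdm2 (ENSMUSG00000020184, chromosome 10 from 117688875 to 117710758 on the minus strand) stood at 136, 103, 101, 83.5 and 115 TPM in Lef1KI libraries A through E, against 106, 91.4, 69.7 and 85.4 TPM in WT libraries A, B, D and E. The highest value was that of Lef1KI A and the lowest that of WT D, with overlap between. The log2 difference was 0.28 (SE 0.157, 95% confidence interval −0.07 to 0.63, limma adjusted p 0.3), and came to 0.175 without WT D and 0.12 with median centring. Ccng1 (ENSMUSG00000020326, chromosome 11 from 40748552 to 40755311 on the minus strand), second to Cdkn1a in mean level, stood at 218, 215, 259, 253 and 258 TPM in Lef1KI libraries A through E, against 225, 215, 202 and 215 TPM in WT libraries A, B, D and E. Lef1KI C, D and E lay above all WT libraries and A and B among them. Its log2 difference of 0.16 had the narrowest interval of the 10 (SE 0.0958, −0.05 to 0.37, limma adjusted p 0.328).

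Trp53inp1 (ENSMUSG00000028211, chromosome 4 from 11156431 to 11174379 on the plus strand) encodes a stress-induced nuclear protein that works in p53-dependent death and in autophagy. Trp53inp1 stood at 111, 85.0, 83.7, 95.9 and 48.3 TPM in Lef1KI libraries A through E, against 44.6, 54.4, 61.6 and 60.7 TPM in WT libraries A, B, D and E. Lef1KI A to D were higher than all WT libraries, and Lef1KI E was within the WT range. The means were 84.8 ± 23.2 TPM (SD, n = 5) and 55.3 ± 7.82 TPM (SD, n = 4), with a log2 difference of 0.57 (SE 0.214, 95% confidence interval 0.10 to 1.04). It did not pass (limma adjusted p 0.141, exact permutation p 0.0635) but did without Lef1KI E, where the difference was 0.75 (limma adjusted p 0.00845).

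Sesn2 (ENSMUSG00000028893, chromosome 4 from 132492032 to 132510501 on the minus strand) encodes sestrin 2, which restrains mTORC1 and is induced by p53 and by the stress factor ATF4. Sesn2 stood at 83.2, 71.4, 95.3, 83.5 and 82.3 TPM in Lef1KI libraries A through E, against 47.6, 60.9, 78.7 and 87.2 TPM in WT libraries A, B, D and E. WT A and B were below all Lef1KI libraries, and WT E and D were among them. A noncoding gene model overlaps Sesn2 on the same strand in GENCODE. The log2 difference was 0.31 (SE 0.169, 95% confidence interval −0.07 to 0.68, limma adjusted p 0.296), and came to 0.145 without WT A and 0.146 with median centring. Phlda3 (ENSMUSG00000041801, chromosome 1 from 135766119 to 135769136 on the plus strand) encodes a p53-induced repressor of Akt signalling. Phlda3 stood at 165, 167, 208, 171 and 203 TPM in Lef1KI libraries A through E, against 293, 176, 138 and 146 TPM in WT libraries A, B, D and E. WT A was the highest library and WT D the lowest, so the Lef1KI range lay inside the WT range. The log2 difference was 0.02 (SE 0.201, 95% confidence interval −0.43 to 0.46, limma adjusted p 0.969), and 0.25 without WT A (limma adjusted p 0.256). It was below 0 without Lef1KI C, Lef1KI E, WT D or WT E.

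By mean TPM the order in Lef1KI was Cdkn1a, Ccng1, Phlda3, Mdm2, Trp53inp1, Sesn2, Cdkn2b, Cdkn1b, Cdkn2a and Cdkn1c. The library ranges of neighbours overlapped for Mdm2 and Trp53inp1, for Trp53inp1 and Sesn2, and for Cdkn1b and Cdkn2a. In WT the order was the same down to Mdm2, followed by Sesn2, Trp53inp1, Cdkn1b, Cdkn2b, Cdkn2a and Cdkn1c. There Ccng1 overlapped Phlda3, Mdm2 overlapped Sesn2, Sesn2 overlapped Trp53inp1, Cdkn1b overlapped Cdkn2b and Cdkn2a overlapped Cdkn1c. Cdkn2a exceeded Cdkn1c in 1 of 4 WT libraries, with ranges of 5.96 to 10.8 and 6.08 to 8.33 TPM. In Lef1KI it exceeded Cdkn1c in 5 of 5 libraries, with ranges of 12.9 to 18.4 and 4.82 to 9.21 TPM.

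Likeness of pattern was taken as Pearson's r of the log2 values over the 9 libraries after subtraction of each group's mean, among genes above the median level of the table. The genes most like Cdkn2a were Ythdf1 (r 0.879), Arhgap23 (0.868) and Nxf1 (0.840). Those most like Cdkn1a were Tspan5 (0.969), Eef1d (0.967) and Chchd5 (0.965). For Cdkn1c they were Prkaca (0.899), Ergic3 (0.872) and Rpl37rt (0.870). With 9 points that share their libraries, these values are a description. Of the 9 genes named, Chchd5 changed between the groups, falling by 0.77 on the log2 scale (limma adjusted p 0.0124).

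Genes of the same machinery were taken from lists by function. Over all genes 7.97% changed and 23.8% had an unadjusted p under 0.05. One list held 5 further inhibitor or related genes, Cdkn2c, Cdkn2d, Cdkn2aip, Cdkn3 and Cables1. None of the 5 changed with limma and none had an unadjusted p under 0.05. The smallest p was that of Cdkn2c, the gene of p18INK4c (9.18 ± 1.24 against 7.498 ± 0.776 TPM, a difference of 0.26 with a limma adjusted p of 0.317). Of 16 G1 cyclins, kinases and pocket proteins 0 changed with limma and 1 had an unadjusted p under 0.05, the D-type cyclin gene Ccnd3. Its mean was 71.6 ± 14.7 TPM in the knock-in group and 52.8 ± 7.90 TPM in the other, without overlap (log2 difference 0.43, limma adjusted p 0.13). Rb1, the retinoblastoma gene, had 17.6 ± 4.30 against 19.3 ± 1.26 TPM (−0.15, limma adjusted p 0.599), and Myc, which represses Cdkn2b and Cdkn1a, had 229 ± 17.7 against 250 ± 25.1 TPM (−0.12, limma adjusted p 0.486). Of 8 genes of p27 turnover and FoxO factors 0 changed with limma and 0 had an unadjusted p under 0.05; Rnf123, whose product ubiquitinates p27, came nearest (20.3 ± 1.84 TPM in Lef1KI, 17.0 ± 0.964 TPM in WT, limma adjusted p 0.242 for a difference of 0.24). Of 20 proliferation genes 0 changed with limma and 4 had an unadjusted p under 0.05, with a median of −0.05. The mitotic kinase gene Cdk1 had 108 ± 28.4 against 155 ± 30.7 TPM (−0.54, limma adjusted p 0.117) and fell without Lef1KI E (−0.67, limma adjusted p 0.0294).

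Of 18 Polycomb genes and other regulators of the Cdkn2a locus 1 rose, against 6.73% of all genes. It was Cbx7, which encodes a Polycomb subunit known to repress that locus. Its mean was 8.19 ± 2.07 TPM (SD, n = 5) in the knock-in group and 2.82 ± 2.30 TPM (SD, n = 4) in the other, with a log2 difference of 1.43 (SE 0.348, limma adjusted p 0.0305). WT D, at 6.03 TPM, was above Lef1KI A at 5.66 TPM, so the groups overlapped. On the log2(TPM + 1) scale Cbx7 met the filter of the deposited table, a mean of at least 3 SD in a group, only in Lef1KI, where it was higher. Its place in the table thus depends on that group. The call was lost without Lef1KI B (1.41), Lef1KI C (1.435), Lef1KI D (1.31), WT A (1.315), WT B (1.49) or WT E (1.121). Id1, whose product opposes Ets-driven transcription of Cdkn2a, fell with median centring (−1.08, limma adjusted p 0.0462), without Lef1KI D (−1.09) and without WT A (−1.16), and not as deposited (−0.92); it was named after its values were seen. The list had a median of 0.18.

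Of 17 genes of p53 and its regulators 1 fell, the p53 paralog Trp73, and none rose, against 1.24% and 6.73% of all genes. Trp73 was low throughout, with 0.622 ± 0.422 TPM in Lef1KI (SD, n = 5), against 2.20 ± 0.920 TPM in WT (SD, n = 4). On the log2(TPM + 1) scale it met the filter of the deposited table, a mean of at least 3 SD in a group, only in WT, where it was higher. Its place in the table thus depends on that group. The log2 difference was −0.97 (SE 0.237, limma adjusted p 0.0313), and Lef1KI D at 1.2 TPM was above WT E at 0.99 TPM. The call was lost without Lef1KI C (−0.93), Lef1KI E (−0.88), WT A (−0.98), WT B (−0.85) or WT D (−0.86). Trp53, which encodes p53, stood at 100, 133, 175, 131 and 192 TPM in Lef1KI libraries A through E, against 116, 91.7, 99.5 and 99.5 TPM in WT libraries A, B, D and E. Lef1KI B to E were above all WT libraries, and Lef1KI A was among them. Its log2 difference of 0.49 did not pass (SE 0.176, limma adjusted p 0.125) but did without Lef1KI A (0.615, limma adjusted p 0.0257). The same setting also called Trp53bp1 (0.72) and the ubiquitin ligase gene Cop1 (0.40), named after their values were seen, and Trp53bp1 passed without WT D as well (0.77). Mdm4, the partner of Mdm2, had 17.0 ± 2.12 against 14.2 ± 2.79 TPM (0.25, limma adjusted p 0.364).

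A wider set of 38 p53 targets was measured in full. None changed with limma and 5 had an unadjusted p under 0.05, against 7.97% and 23.8% of all genes. Of the 38 differences 22 were above 0, a smaller share than the 69.6% of all genes. The median of 0.08 was below the 0.14 of all genes. Bbc3, which encodes the death effector PUMA, had the smallest p, with 20.6 ± 3.75 TPM in Lef1KI (SD, n = 5), against 13.3 ± 4.72 TPM in WT (SD, n = 4). Its log2 difference was 0.62 (limma adjusted p 0.107), and it passed without WT A (0.83, limma adjusted p 0.0182), as did Trp53i11 (0.725). Without Lef1KI A, 2 others fell, Gdf15 (−1.51) and Ephx1 (−0.50). These 3 were named after their values were seen.

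The listed targets of ATF4, to which Sesn2 also answers, had a median of 0.58, beside 0.14 over all genes. With median centring these medians were 0.42 and −0.02. Of the 15 differences 14 were above 0, against 69.6% of all genes, and 8 had an unadjusted p under 0.05, against 23.8% of all genes. The list was chosen with earlier results of these data known, so these shares are a description. Of the 15, 1 rose, against 6.73% of all genes. It was the transcription factor gene Atf3, with 108 ± 18.5 TPM in Lef1KI (SD, n = 5), against 64.5 ± 3.71 TPM in WT (SD, n = 4). Its log2 difference was 0.72 (SE 0.136, limma adjusted p 0.00889), and its groups did not overlap. The number called was 5 without Lef1KI A, 3 without Lef1KI D and 2 without WT A. Those added were named after their values were seen: Atf5 (0.915), Psat1 (0.94) and Phgdh (0.78) rose and Ddit3 (−1.15) fell without Lef1KI A, Ddit4 (0.72) and Slc7a11 (1.35) rose without Lef1KI D, and Psat1 (0.955) rose without WT A. Fibroblast markers were higher in the same 5 libraries, with sums of 359 to 1119 against 108 to 168 TPM.

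**Figure D5:**
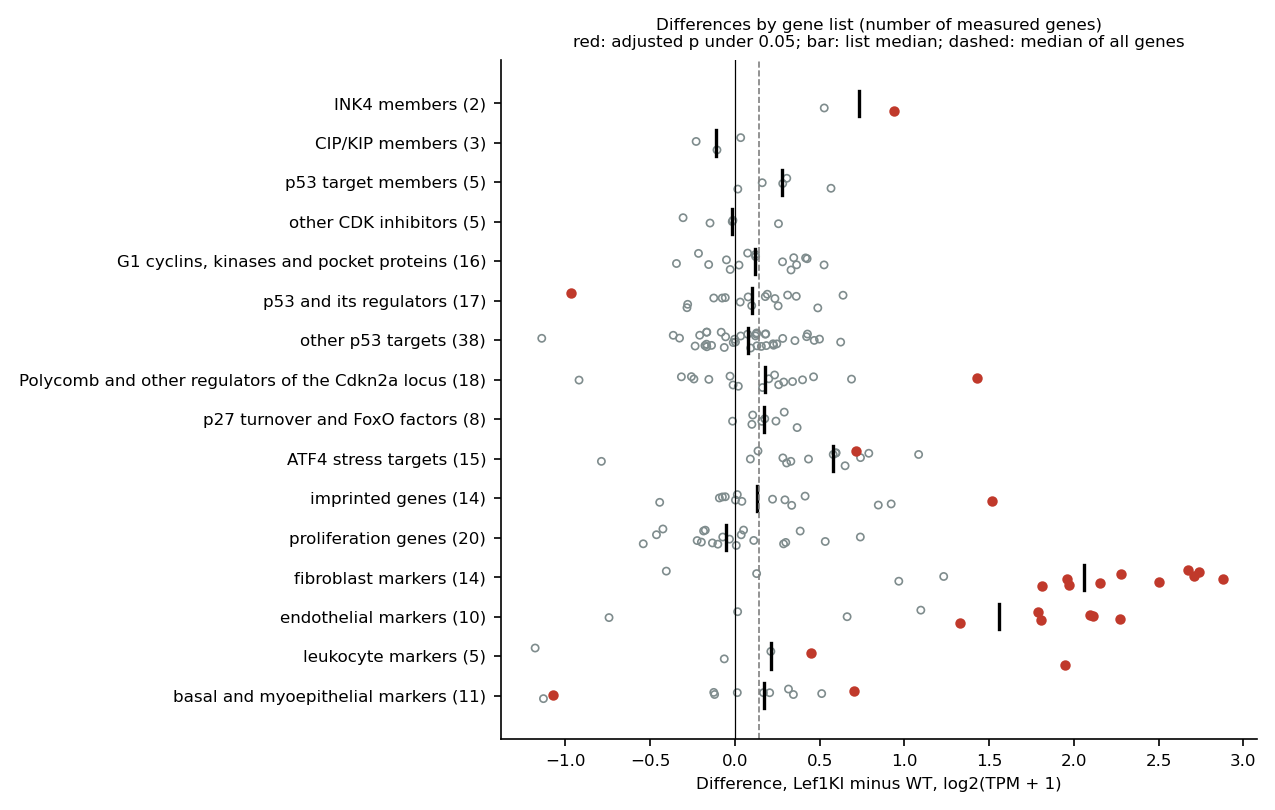
Differences on the log2(TPM + 1) scale (x axis) of the measured genes of each list (rows, with the number measured); red points passed the threshold, black bars are list medians and the dashed line is the median of all genes (0.14). Among the lists of cell cycle and p53 genes at most 1 point per row is red, while 10 of 14 fibroblast and 6 of 10 endothelial markers are.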

How the data were processed

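RNA of 9 libraries, 5 Lef1KI and 4 WT, was measured with a stranded mRNA kit. The authors deposited log2(TPM + 1) values of 13336 genes; per the submitters' processing notes they used RSEM and mm10. Every deposited gene has a mean log2(TPM + 1) of at least 3 SD in 1 group or both, a filter that favours genes with little spread. TPM keep no depth, so no counting error is given, and p-values measure the spread between pools. Columns carry letters that nothing ties to the labels' replicate numbers, so libraries are called by letter.

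Groups were compared over the whole table with limma 3.58.1 in R 4.3.3 (intensity trend, two-sided, Benjamini-Hochberg adjustment), tested on simulated data first, and each of the 10 genes also by an exact permutation test. Low genes are understated on the log2(TPM + 1) scale. Positions come from GENCODE M21, in which 99.58% of gene IDs were found, and promoters from RefSeq (8 of the 10 genes). The members and lists were chosen with earlier results of these data known. From each list the text names up to 2 genes per direction with the smallest adjusted p, or, where none passed, the smallest p, and it always names Trp53, Lef1, Mdm4, Rb1 and Myc. Alternatives were median centring, trimmed-mean scaling, pseudocounts of 0.1 and 5, a filter at 1 TPM, no trend, robust fitting, leaving out each library, and the column letter as a block.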

Additional observations from a re-analysis of the deposited data

How the results depend on the processing

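Cdkn2a passed under 16 of 17 alternatives, without any 1 library at 0.821 to 1.076, and Igf2 under all 17. Over all genes, 1063 were called, and leaving out 1 library gave 628 (without WT E) to 1686 (without Lef1KI A), with 643 without WT B. With 1 library left out 1 to 2 of the 10 genes were called; Cdkn2b ran from 0.404 to 0.624 and Trp53inp1 from 0.458 to 0.754. Cdkn1a turned negative with median centring (−0.126) and trimmed-mean scaling (−0.115) and ran from −0.073 to 0.093 with 1 library left out, negative without Lef1KI A (−0.073) or WT D (−0.013). Phlda3 turned to −0.142 and −0.132 with those scalings and ran from −0.108 to 0.252, negative without Lef1KI C (−0.031), Lef1KI E (−0.023), WT E (−0.084) or WT D (−0.108). With trimmed-mean scaling 612 of 918 genes called were higher in Lef1KI. The cause of these changes was not tested.

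The column letters were also used as a replicate block, on the 8 libraries whose letters A, B, D and E occur in both groups. Same-letter libraries did not deviate together (r −0.259 to 0.258 over 4 pairs, 1 of 4 highest with its own letter), so the letters do not show a pairing. With the replicate block and 1 library fewer, 486 genes were called, 439 of them higher in Lef1KI, and 0 of the 10; with limma the difference was 0.896 for Cdkn2a (adjusted p 0.103), −0.031 for Phlda3 and 0.671 for Atf3 (adjusted p 0.0684). TPM keep no read depth, so what depth limits is unknown.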

Other observations

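Some stress genes were high in Lef1KI A beside the highest Cdkn1a (795 TPM), Mdm2 (136 TPM) and Trp53inp1 (111 TPM) of any library; these were picked out after their values were seen. Gdf15, which encodes a secreted stress cytokine and is a p53 and ATF4 target, had 184 TPM in Lef1KI A and 30.6 to 96.6 TPM in the other Lef1KI libraries, against 96.5 to 177 TPM in WT. Its log2 difference was −1.14 (limma adjusted p 0.157) with all libraries and −1.51 (limma adjusted p 0.0192) without Lef1KI A. Ddit3, the gene of the stress factor CHOP, had 408 TPM in Lef1KI A and 99.8 to 151 TPM in the other Lef1KI libraries, against 128 to 431 TPM in WT. In the same library Trp53 itself was lowest of its group, at 100 TPM. The cause was not tested.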
